A study of Mus musculus with 26 samples.

Results

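Germline genes held silent in body tissues by DNA methylation of their promoters were followed through 26 exon array measurements of mouse embryonic stem (ES) cell derivatives. The set held 10 genes, Dazl, Ddx4, Sycp3, Hormad1, Mael, Stk31, Tdrd1, Taf7l, Slc25a31 and Tex101, of 21757 gene symbols on the array and 18341 genes tested. They were chosen by name, as the probe sets whose single gene symbol was one of these, and all 10 were measured and tested, with 182 probe sets in all. The name of the set comes from general knowledge of these genes: no DNA methylation was measured here.

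The labels divide the arrays by mouse strain and by nothing else: 129S2/SvPas for ES1 to ES14 (14 arrays) and C57BL/6 for ES15 to ES26 (12 arrays), both inbred strains from which ES cells are derived. Every sample is described as an embryoid body cell (embryoid bodies are aggregates in which ES cells differentiate), and no stage, day, treatment, sex or batch is given for any of them. Nothing says that the arrays of a label came from separate cultures. Every p-value rests on the spread between the arrays of a label. That spread takes in arrays whose marker genes differ widely, as described below, and part of it may be technical. The p-values therefore do not measure variation between replicates of 1 condition. A gene value is the median of the brighter 50% of a gene's probe sets, on the RMA log2 scale, where 1 unit is a doubling of signal. Because the labels give no further condition, values are described over runs of consecutive titles (ES1 to ES12, ES13 to ES14, ES15 to ES20, ES21 to ES24 and ES25 to ES26), which are not groups of the study and were not tested.

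The markers went against a single kind of sample. All 13 tested neutrophil and myeloid genes were higher in the arrays labelled 129S2/SvPas, and ES1 to ES12 had a list mean of 10.93 to 12.17, while ES13 (5.95) and ES14 (5.64) resembled the C57BL/6 arrays (5.46 to 6.70). Pou5f1, the gene of the pluripotency factor Oct4, ran from 4.58 to 6.12 over ES1 to ES12, was 10.38 and 8.88 for ES13 and ES14, ran from 7.74 to 8.79 over ES15 to ES20 and from 11.23 to 11.70 over ES21 to ES24, and was 6.61 and 7.82 for ES25 and ES26. ES13 and ES14 therefore stood apart from the other arrays of their strain label, and results are given with and without the runs on which they rest.

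In the mouse, primordial germ cells erase DNA methylation across the genome, and a set of genes for meiosis, for RNA regulation and for silencing transposons through PIWI-interacting RNAs (piRNAs) then becomes active. In the cells of the body these genes are silent: their CpG-rich promoters gain methylation around implantation, mainly through the methyltransferase Dnmt3b, and many are also repressed by a Polycomb complex that holds the DNA-binding proteins E2f6, Mga and Max. ES cells grown in culture are known to express some germline genes at low levels.

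The promoter sequences are shown for 7 of the genes, because methylation and the factors just named act there. They are RefSeq windows of 300 bases in build GRCm38.p6, from 250 bases before to 50 after the annotated start, written on the strand of the gene, and all 10 genes had at least 1 window. Capitals mark CACGTG, the E-box bound by Myc-like factors including Mga with Max, and TCCCGC or its reverse complement GCGGGA, the core bound by E2f6. The first 4 genes, Ddx4, Sycp3, Hormad1 and Mael, hold both motifs and had among the widest gaps between ES21 to ES24 and the other arrays labelled C57BL/6. Stk31, whose sequence is not shown, had a similar gap (1.93 log2 units, against 1.94 in Hormad1) with an E-box and no TCCCGC. Dazl also had a gap of over 1 log2 unit and holds neither motif, while Slc25a31, with both, and Tex101, with neither, had gaps below 1.
Ddx4, chr13:112652261-112652560, minus strand: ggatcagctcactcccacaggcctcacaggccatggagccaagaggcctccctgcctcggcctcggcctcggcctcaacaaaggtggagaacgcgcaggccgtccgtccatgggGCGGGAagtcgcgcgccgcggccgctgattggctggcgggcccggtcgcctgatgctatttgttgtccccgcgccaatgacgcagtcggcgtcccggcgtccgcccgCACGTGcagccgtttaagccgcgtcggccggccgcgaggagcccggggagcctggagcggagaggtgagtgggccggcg
Sycp3, chr10:88459337-88459636, plus strand: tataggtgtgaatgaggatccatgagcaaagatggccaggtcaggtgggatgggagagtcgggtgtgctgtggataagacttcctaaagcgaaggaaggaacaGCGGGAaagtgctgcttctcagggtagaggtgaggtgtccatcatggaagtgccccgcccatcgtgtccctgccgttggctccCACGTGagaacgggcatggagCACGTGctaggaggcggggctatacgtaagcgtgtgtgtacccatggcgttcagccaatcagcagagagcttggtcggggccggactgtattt
Hormad1, chr3:95559427-95559726, plus strand: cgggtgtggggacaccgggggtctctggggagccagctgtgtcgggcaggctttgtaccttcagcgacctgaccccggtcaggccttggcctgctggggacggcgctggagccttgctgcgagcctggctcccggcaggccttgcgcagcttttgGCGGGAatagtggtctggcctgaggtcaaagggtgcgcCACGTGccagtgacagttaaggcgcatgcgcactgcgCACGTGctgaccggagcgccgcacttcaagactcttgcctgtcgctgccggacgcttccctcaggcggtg
Mael, chr1:166238695-166238994, minus strand: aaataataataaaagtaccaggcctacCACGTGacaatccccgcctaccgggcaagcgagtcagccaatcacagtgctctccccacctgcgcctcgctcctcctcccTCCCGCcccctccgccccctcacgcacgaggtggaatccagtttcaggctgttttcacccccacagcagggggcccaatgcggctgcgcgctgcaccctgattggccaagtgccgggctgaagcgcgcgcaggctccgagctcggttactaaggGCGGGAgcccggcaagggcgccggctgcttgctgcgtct
Dazl, chr17:50293571-50293870, minus strand: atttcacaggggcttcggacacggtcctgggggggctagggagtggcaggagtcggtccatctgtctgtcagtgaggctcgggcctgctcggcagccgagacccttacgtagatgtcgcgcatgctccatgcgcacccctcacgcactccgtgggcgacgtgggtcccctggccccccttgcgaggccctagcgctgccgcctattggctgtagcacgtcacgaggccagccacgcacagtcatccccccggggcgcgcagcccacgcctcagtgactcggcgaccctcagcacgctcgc
Slc25a31, chr3:40708621-40708920, plus strand: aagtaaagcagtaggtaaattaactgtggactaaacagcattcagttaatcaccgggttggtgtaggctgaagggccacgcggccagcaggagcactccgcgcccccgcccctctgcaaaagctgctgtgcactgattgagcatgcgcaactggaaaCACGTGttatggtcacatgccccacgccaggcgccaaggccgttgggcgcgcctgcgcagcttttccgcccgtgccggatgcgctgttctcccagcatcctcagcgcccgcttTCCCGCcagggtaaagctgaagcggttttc
Tex101, chr7:24672001-24672300, minus strand: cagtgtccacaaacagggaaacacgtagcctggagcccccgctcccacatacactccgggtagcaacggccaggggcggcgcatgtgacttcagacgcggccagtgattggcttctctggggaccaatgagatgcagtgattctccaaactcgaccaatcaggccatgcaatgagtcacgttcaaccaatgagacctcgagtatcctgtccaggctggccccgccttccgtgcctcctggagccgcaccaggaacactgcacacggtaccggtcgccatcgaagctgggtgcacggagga

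The CpG count of the richest window ran from 15 in Sycp3 to 38 in Ddx4, against a median of 7 and an upper quartile of 20 over 32851 windows of all genes. Sycp3 (15), Taf7l (17) and Tex101 (19) lay below that quartile, and 34.6% of all windows held at least 15 CpGs. The E-box CACGTG was found in 8 of the 10 genes, all but Dazl and Tex101. Counted by gene, 8.09% of 27025 genes had it in at least 1 window. It was found in 7.15% of all windows, or 11.3% of the 11378 windows with at least as many CpGs as Sycp3. In Ddx4 its first base lay 29 bases upstream of the start, in Hormad1 57 and 20, in Sycp3 64 and 43, in Stk31 55, in Taf7l 49, in Tdrd1 11, in Slc25a31 93 and in Mael 223 (upstream-most window of each gene). The motif TCCCGC was found on either strand in 5 of the 10 genes, Ddx4, Sycp3, Hormad1, Mael and Slc25a31. Counted by gene, 22.0% of all genes had it in at least 1 window. It was found in 20.0% of all windows, or 45.4% of those with at least 15 CpGs. No match overlapped another, and both motifs together occurred in 1.99% of all windows. The cyclic AMP response element TGACGTCA, searched in the same way on both strands, was found in 0 of the 10 genes. It was found in 2.03% of all genes and 1.79% of all windows. Dazl, Ddx4, Sycp3, Hormad1, Mael and Stk31, the 6 genes with the widest gap between ES21 to ES24 and the other arrays labelled C57BL/6, had 15 to 38 CpGs in their richest window, and the other 4 had 17 to 25. An E-box was found in 5 of these 6 and 3 of the other 4, and TCCCGC in 4 of the 6 and 1 of the other 4. These counts were not tested.

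**Figure D1:**
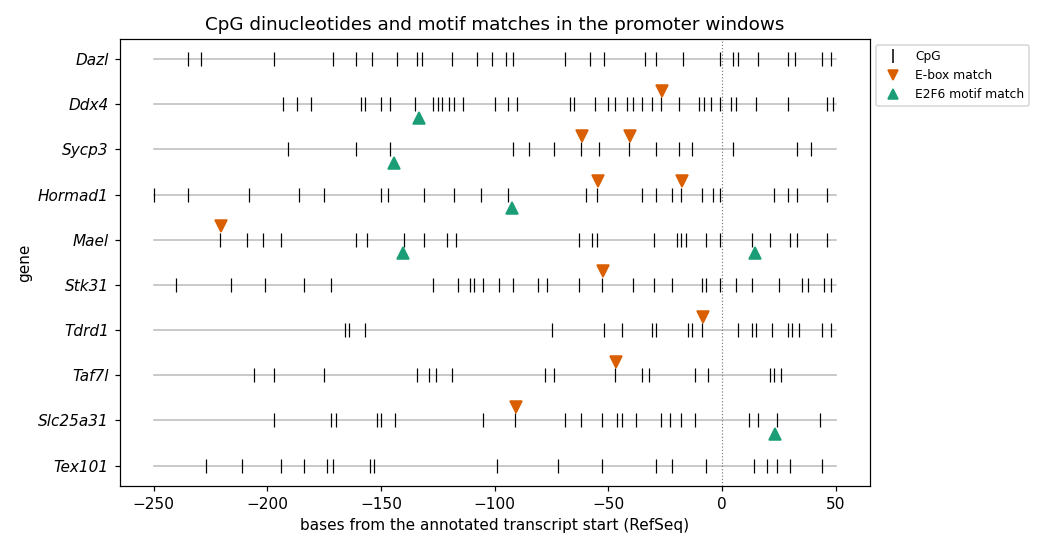
Each line is the upstream-most RefSeq promoter window of 1 gene, with the distance in bases from the annotated transcript start on the x axis. Ticks mark CpG dinucleotides, downward triangles E-box matches and upward triangles E2F6 motif matches; most E-boxes lie within 100 bases upstream of the start, and Dazl and Tex101 have none.

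Across the arrays, 6 of the 10 genes shared 1 pattern: Dazl, Ddx4, Sycp3, Hormad1, Mael and Stk31 were highest in ES23, and each of ES21 to ES24 lay above the other C57BL/6 arrays, except that ES20 exceeded ES21 and ES22 for Dazl. In ES21 to ES24 the 6 averaged between 5.39 and 6.51, and in the other 8 arrays labelled C57BL/6 between 3.46 and 4.85, a difference of 1.20 in Dazl, 1.93 in Stk31, 1.94 in Hormad1, 1.96 in Ddx4, 2.11 in Mael and 2.53 log2 units in Sycp3. In 7 of the 10 genes all of ES21 to ES24 lay above the other 8 arrays labelled C57BL/6, which was the case in 5.08% of all tested genes, and in 4 they lay above all the other 22 arrays, as in 2.38% of all tested genes. These are descriptions of runs of titles, with no test.

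**Figure D2:**
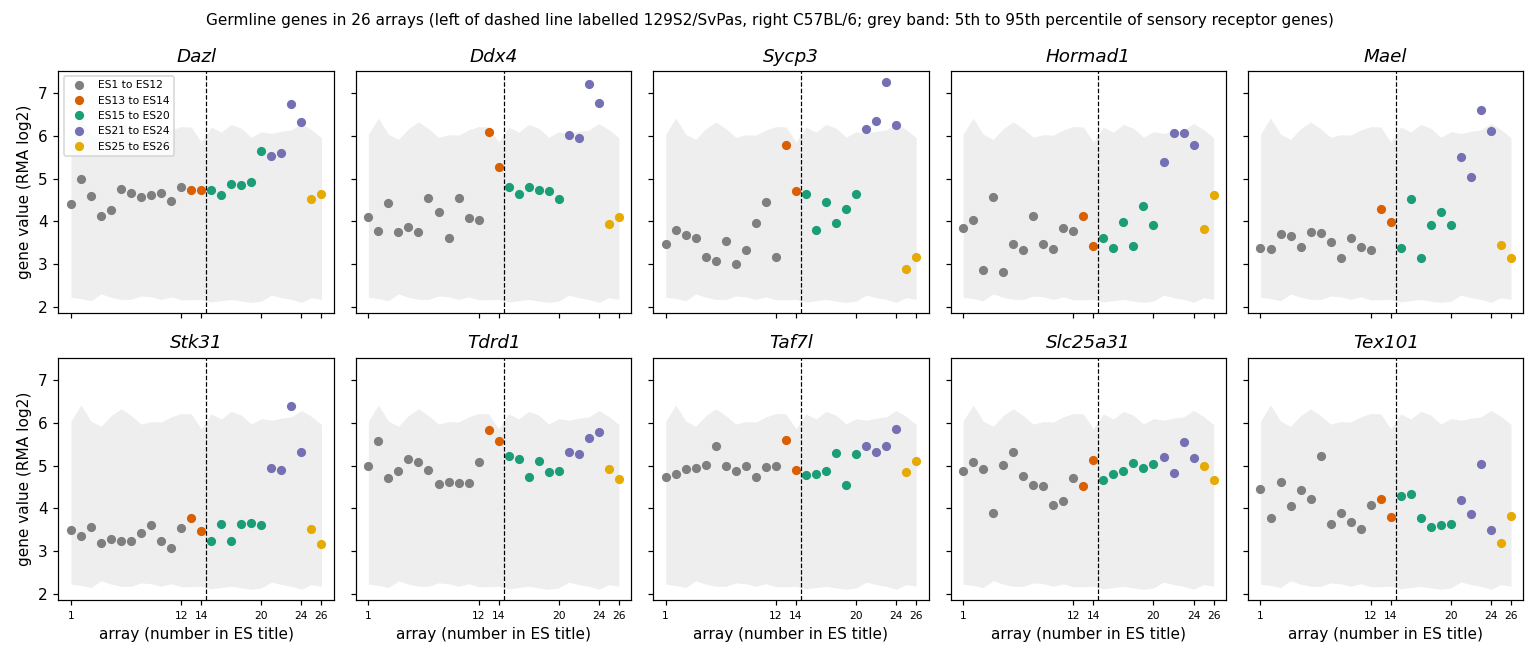
Gene values (RMA log2) of the 10 genes on the y axis against the array number on the x axis, 1 point per array, coloured by run of titles. Left of the dashed line are the arrays labelled 129S2/SvPas and right of it those labelled C57BL/6; the grey band is the 5th to 95th percentile of 296 sensory receptor genes on each array. Dazl, Ddx4, Sycp3, Hormad1, Mael and Stk31 peak in ES23, and Tex101 follows no such pattern.

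Dazl and Ddx4 encode RNA regulators of germ cells. Dazl, an RNA-binding protein that controls translation, had gene values of 5.53, 5.59, 6.75 and 6.33 in ES21, ES22, ES23 and ES24. Its values were 4.74 in both ES13 and ES14, and 4.52 and 4.63 in ES25 and ES26. In ES1 to ES12 they ran from 4.12 to 5.00 with a median of 4.61, and in ES15 to ES20 from 4.61 to 5.64 with a median of 4.85. ES20 was the highest of its run and reached the level of ES21 and ES22, so the runs overlapped for Dazl, and ES23 and ES24 alone stood clear of every other array.

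Ddx4, the mouse Vasa helicase found in the cytoplasmic nuage of germ cells, was at 6.03, 5.95, 7.22 and 6.77 in ES21 to ES24. In ES13 it was at 6.10 and in ES14 at 5.28, in ES25 at 3.94 and in ES26 at 4.10. In ES15 to ES20 it ran from 4.52 to 4.81 (median 4.72) and in ES1 to ES12 from 3.60 to 4.54 (median 4.05). ES13 thus lay level with ES21 and ES22, ES14 lay above all arrays of ES15 to ES20, and ES25 and ES26 fell within the range of ES1 to ES12.

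Sycp3 and Hormad1 encode proteins of the meiotic chromosome axis. Sycp3, the structural protein of the axial and lateral elements of the synaptonemal complex, was at 6.17, 6.35, 7.27 and 6.25 in ES21 to ES24. It was at 5.80 in ES13 and 4.72 in ES14, and at 2.89 and 3.16 in ES25 and ES26. In ES15 to ES20 it ran from 3.80 to 4.65 (median 4.38), and in ES1 to ES12 from 2.99 to 4.45 (median 3.50). Its range over the 26 arrays, 4.38 log2 units, was the widest of the 10 genes; ES25 held its lowest value, and ES13 came closest to ES21 to ES24.

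Hormad1, a HORMA domain protein that marks unsynapsed chromosome axes, was at 5.38, 6.07, 6.08 and 5.78 in ES21 to ES24. It was at 4.13 in ES13 and 3.42 in ES14, and at 3.83 in ES25 and 4.62 in ES26. In ES15 to ES20 it ran from 3.38 to 4.35 (median 3.77) and in ES1 to ES12 from 2.81 to 4.57 (median 3.63). Unlike the values of Ddx4 and Sycp3, those of ES13 and ES14 lay within the range of ES1 to ES12, and the order of the remaining runs was not resolved beyond their spread.

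Mael, Stk31 and Tdrd1 belong to the piRNA and Tudor domain machinery. Mael (Maelstrom), needed for silencing of transposons in the male germline, was at 5.51, 5.04, 6.60 and 6.11 in ES21 to ES24, at 4.29 and 3.99 in ES13 and ES14, and at 3.44 and 3.15 in ES25 and ES26. In ES15 to ES20 it ran from 3.15 to 4.52 (median 3.91) and in ES1 to ES12 from 3.14 to 3.74 (median 3.45). All of ES21 to ES24 lay above every other array, and ES13 and ES14 lay above ES1 to ES12 but inside the range of ES15 to ES20.

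Stk31, a Tudor domain protein with a kinase-like domain made in spermatogenic cells, was at 4.95, 4.90, 6.40 and 5.31 in ES21 to ES24. In ES13 and ES14 it was at 3.78 and 3.47, and in ES25 and ES26 at 3.51 and 3.16. In ES15 to ES20 it ran from 3.23 to 3.65 (median 3.61) and in ES1 to ES12 from 3.07 to 3.61 (median 3.31). The other 22 arrays stayed at or below 3.78, the value of ES13, so that ES21 to ES24 stood apart, with ES23 1.09 log2 units above ES24.

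Tdrd1, a Tudor domain scaffold that binds PIWI proteins, moved little, with a range of 1.25 log2 units over the 26 arrays. It was at 5.31, 5.26, 5.65 and 5.78 in ES21 to ES24, at 5.83 and 5.57 in ES13 and ES14, and at 4.91 and 4.69 in ES25 and ES26. In ES15 to ES20 it ran from 4.73 to 5.23 and in ES1 to ES12 from 4.57 to 5.57. ES13 was its highest array, and ES2, at 5.57, reached the level of ES21 to ES24.

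The other 3 genes showed no rise of that size. Taf7l, an X-linked testis paralog of the TFIID subunit Taf7, was at 5.46, 5.31, 5.46 and 5.86 in ES21 to ES24 and between 4.55 and 5.60 in the other 22 arrays. Slc25a31, the germ cell ADP/ATP carrier of the mitochondrial membrane, was at 5.19, 4.82, 5.55 and 5.18 in ES21 to ES24 and between 3.88 and 5.32 in the other 22 arrays. Tex101, a surface glycoprotein of germ cells, was at 4.20, 3.87, 5.04 and 3.49 in ES21 to ES24 and between 3.18 and 5.22 in the others, with its highest value in ES7. For these 3 genes ES21 to ES24 overlapped with the other arrays.

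Singly, ES23 was the highest of the 26 arrays for 7 of the 10 genes and ES24 for Taf7l. ES23 lay above ES24 by 1.09 in Stk31, 1.02 in Sycp3, 0.50 in Mael, 0.45 in Ddx4, 0.42 in Dazl and 0.30 log2 units in Hormad1. It lay above ES21 by between 0.70 in Hormad1 and 1.45 in Stk31 for the same genes. The differences between single arrays have no replicate error.

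All 10 genes had a mean over the 26 arrays below the median of all tested genes. As a mark of the low end of each array, 296 olfactory and vomeronasal receptor genes, which are made in sensory neurons, had a 95th percentile between 5.86 and 6.42. Sycp3 exceeded it in ES21, ES22 and ES23, Dazl and Ddx4 in ES23 and ES24, and Mael and Stk31 in ES23, while Hormad1, Tdrd1, Taf7l, Slc25a31 and Tex101 exceeded it in 0 arrays. Probe sets differ in brightness for reasons other than RNA level, so this is no detection call, and levels were not compared between genes. In bulk samples fewer cells that express a gene and less RNA per cell cannot be told apart.

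Between the strain labels, 6 of the 10 passed the test with lower values under 129S2/SvPas and 0 with higher values (limma, Benjamini-Hochberg adjusted over 18341 genes, threshold 0.05). The background was high: 22.1% of all tested genes were called lower and 21.1% higher. The median difference of the 10 genes was -0.68 log2 units, and that of all tested genes -0.0015.

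Sycp3 averaged 3.76 ± 0.77 in the arrays labelled 129S2/SvPas and 4.83 ± 1.38 in those labelled C57BL/6 (SD, n = 14 and 12), a difference of -1.06 ± 0.41 (SE; limma adjusted p = 0.0361). Ddx4 averaged 4.29 ± 0.68 under 129S2/SvPas and 5.19 ± 1.05 under C57BL/6, a difference of -0.90 ± 0.33 (limma adjusted p = 0.0269). For Hormad1 the difference was -0.89 ± 0.29 (limma adjusted p = 0.0152), for Mael -0.83 ± 0.31 (0.0303), for Stk31 -0.71 ± 0.27 (0.0317) and for Dazl -0.65 ± 0.20 (0.00899). Of the 14 arrays labelled 129S2/SvPas, 1 lay above the C57BL/6 median for Dazl, Hormad1, Mael and Stk31 each, and 2 for Ddx4 and Sycp3 each.

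The remaining 4 genes did not pass. The difference was -0.30 ± 0.14 in Slc25a31 (limma adjusted p = 0.08), -0.14 ± 0.12 in Taf7l (0.389), -0.12 ± 0.15 in Tdrd1 (0.539) and 0.21 ± 0.18 in Tex101 (0.376).

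The calls rested on ES21 to ES24. Without these 4 arrays, 0 of the 10 genes passed with limma and 0 had an unadjusted p below 0.05, while 7225 of all tested genes passed; the differences of the 6 genes then lay between -0.25 in Dazl and Hormad1 and -0.07 in Stk31. Without ES23 and ES24, Dazl alone passed (-0.39, limma adjusted p = 0.0223), and 3 genes had an unadjusted p below 0.05. With ES1 to ES12 left out, the label 129S2/SvPas holds ES13 and ES14 alone: 0 of the 10 passed with limma, 1 had an unadjusted p below 0.05 (Tdrd1), and Ddx4 and Sycp3 differed by 0.51 and 0.44, higher under 129S2/SvPas. In that fit 1 of all tested genes passed. Without ES13 and ES14 the same number of genes, 6, passed, with Sycp3 at -1.31 and Ddx4 at -1.13. With each array centred on its median, which moved the median difference of all genes to 0.13, the calls split into 5738 higher and 2954 lower (66.0% higher), against 3876 higher and 4055 lower (48.9% higher) without centring. With centring, Dazl (adjusted p = 0.0375) and Hormad1 (adjusted p = 0.0404) passed and the other 4 did not (limma adjusted p of 0.0592 to 0.0818).

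**Figure D3:**
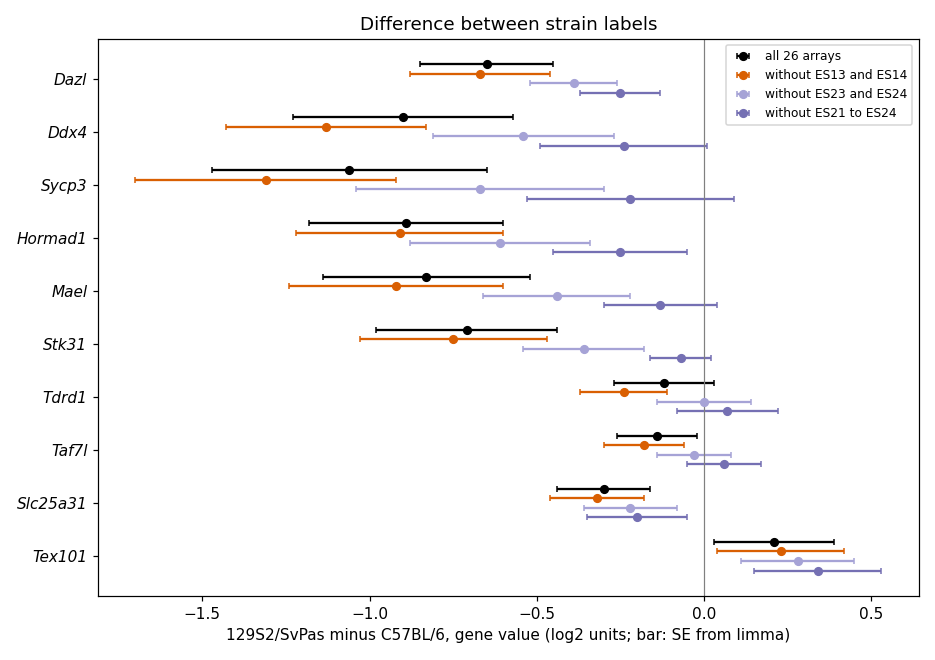
Difference in gene value between the arrays labelled 129S2/SvPas and those labelled C57BL/6 on the x axis (log2 units, bars are SE from limma), 1 row per gene. The points are for all 26 arrays and without the arrays named in the legend; without ES21 to ES24 the differences of Dazl, Ddx4, Sycp3, Hormad1, Mael and Stk31 lie between -0.25 and -0.07.

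Single arrays decided some calls. Leaving out ES23 or ES24 raised the adjusted p of Ddx4 to 0.0539 or 0.0548, and leaving out ES21, ES22, ES23 or ES24 raised that of Mael to between 0.0517 and 0.0617. Stk31 did not pass without ES21, ES22 or ES24 (limma adjusted p of 0.0588 to 0.0636). Sycp3 did not pass in 10 of 26 such fits, without ES1, ES5, ES6, ES8, ES9, ES12, ES21, ES22, ES23 or ES24 (limma adjusted p of 0.0502 to 0.0736). Dazl and Hormad1 passed in all 26. The count of the 10 genes that passed was 3 without ES21, ES22 or ES23 and 2 without ES24. Slc25a31 passed when ES6 (limma adjusted p = 0.036) or ES14 (0.0475) was left out.

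Over the 182 probe sets of the 10 genes, 40 passed with lower values under 129S2/SvPas and 2 with higher values (limma over 631748 probe sets), where 14.6% of all probe sets were called lower and 14.2% higher. The 40 comprised 9 of 21 in Ddx4, 9 of 26 in Stk31, 5 of 15 in Dazl, 5 of 17 in Mael, 4 of 17 in Hormad1, 3 of 33 in Tdrd1, 2 of 11 in Sycp3, 2 of 16 in Slc25a31, 1 of 16 in Taf7l and 0 of 10 in Tex101. Both higher probe sets belonged to Slc25a31. The count of lower probe sets was 7 without ES21 to ES24 and 16 without ES23 and ES24.

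The rise in ES21 to ES24 was spread over most probe sets of some genes and few of others. In Ddx4 all of ES21 to ES24 lay above the other 8 arrays labelled C57BL/6 in 14 of 21 probe sets, in Stk31 in 14 of 26, in Mael in 11 of 17, in Hormad1 in 6 of 17, in Sycp3 in 6 of 11 and in Dazl in 1 of 15, against 2.66% of all probe sets. The same held in 5 of 16 probe sets of Slc25a31, 4 of 16 of Taf7l, 2 of 33 of Tdrd1 and 0 of 10 of Tex101. The widest gap of a single probe set was 2.32 in Taf7l, 1.96 in Tdrd1 and 1.60 in Slc25a31, although their gene values differed by 0.58, 0.56 and 0.31. In Ddx4 19 of 21 probe sets differed by at least 1 log2 unit between the means of ES21 to ES24 and of the other 8 arrays, and the median over its probe sets was 2.14. The probe set with the widest gap belonged to Mael, with a mean of 6.27 in ES21 to ES24 and 2.56 in the other 8 arrays. In Hormad1 the probe sets divided, with 7 of 17 at 1 log2 unit or more and a lowest of 0.06, and the median over all its probe sets was 0.80 although its gene value, taken from the brighter 50% of probe sets, differed by 1.94. Sycp3 had 7 of 11 at 1 or more, and with the median over all probe sets as gene value its difference between the strain labels was -0.60 (limma adjusted p = 0.123). In Tex101 0 of 10 probe sets reached 1 log2 unit, and in Tdrd1 5 of 33 did.

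**Figure D4:**
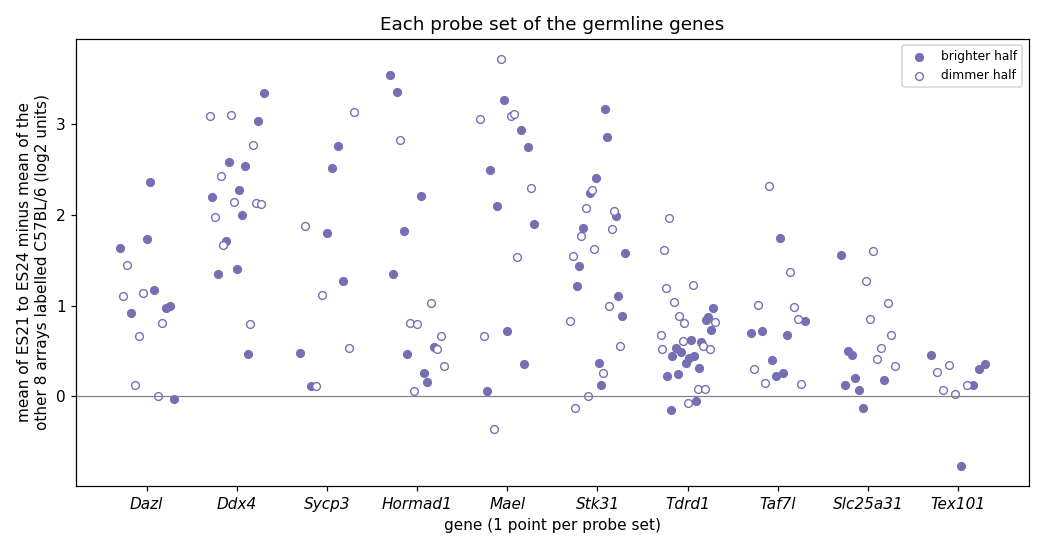
Each point is 1 probe set, with the mean of ES21 to ES24 minus the mean of the other 8 arrays labelled C57BL/6 on the y axis (log2 units) and the gene on the x axis. Filled points belong to the brighter 50% that make the gene value and open points to the dimmer ones; most probe sets of Ddx4 lie above 1, while those of Tex101 lie between -0.76 and 0.46.

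Genes with the most similar pattern were found by the root mean square difference between centred gene values, in log2 units. Over the 26 arrays, Mael and Stk31 were 0.31 apart, the closest pair among the 7 genes compared, and Stk31 was the gene closest to Mael of all tested genes. Ddx4 was the closest of all tested genes to Sycp3, at 0.44. The other nearest genes over 26 arrays were Uba1y (0.21) and Mep1b (0.24) for Dazl, Ddx43 (0.34) and Zyg11a (0.37) for Ddx4, Mpzl2 (0.45) for Sycp3, Hsd17b14 (0.42) and Sh3gl2 (0.43) for Hormad1, Pnldc1 (0.35) for Mael, Gli1 (0.24) and Slc12a8 (0.27) for Stk31, and Mbd4 (0.35) and Nme3 (0.35) for Tex101. Over the 14 arrays ES13 to ES26, Uba1y and Mep1b were again nearest to Dazl (0.22 and 0.23), Erbb3 and Grhl2 to Ddx4 (0.20 and 0.25), Mpzl2 and Ap1m2 to Sycp3 (0.35 and 0.36), Hsd17b14 and Cobl to Hormad1 (0.32 and 0.33), Stk31 and Ankrd45 to Mael (0.30 and 0.38), Tex11 and Zbtb8a to Stk31 (0.24 and 0.26), and Zfp82 and Ccdc77 to Tex101 (0.21 and 0.24). The median over all genes lay between 0.55 and 1.29, so Tex101, at 0.55 to 0.60, was the gene for which a small value says least. Tdrd1, Taf7l and Slc25a31 ranged over less than 2 log2 units and were not compared.

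Other germline genes were followed in lists. The counts of all lists below stand against 22.1% of all tested genes called lower and 21.1% called higher. Of 14 tested piRNA pathway genes 4 were lower under 129S2/SvPas and 0 higher (median difference -0.20), with Tdrd12 at -1.62 ± 0.47 (SE; limma adjusted p = 0.00604), Tdrkh at -1.33 and Mybl1 at -1.25 the most lowered. Tdrd12, a Tudor domain helicase of the piRNA pathway, was at 8.71, 8.40, 10.04 and 9.30 in ES21 to ES24 and no higher than 6.70 in any other array. Tdrkh and Mybl1 did not follow the 10 genes: Tdrkh was highest in ES26 (8.57), and Mybl1 in ES13 (7.58).

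Of 20 tested genes of the meiotic chromosome axis and recombination, 7 were lower and 3 higher (median -0.06), led by Tex15 (-0.97), the meiotic cohesin gene Stag3 (-0.87) and Meioc (-0.77). Tex15 ran from 5.39 to 5.98 in ES21 to ES24 and from 5.74 to 6.37 in ES15 to ES20, and Meioc from 6.32 to 6.83 and from 6.63 to 7.35 in the same runs, so these genes were not highest in ES21 to ES24. Stag3 was, at 7.44, 7.88, 7.78 and 7.26, with 6.91 at most elsewhere. Tex11, an X-linked meiotic gene, is included because its pattern was nearest to that of Stk31 over ES13 to ES26. It was at 3.50, 3.74, 5.12 and 4.20 in ES21 to ES24 and between 2.42 and 3.03 in the other 22 arrays. Its difference between the strain labels did not pass (-0.35 ± 0.22, SE, limma adjusted p = 0.204).

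Of 9 further germline genes tested, 5 were lower and 0 higher (median -0.52), led by Hsf2bp (-1.02), Rhox9 (-0.86) and Sohlh2 (-0.74). Hsf2bp, a meiotic recombination factor, was at 7.82, 8.19, 8.95 and 8.60 in ES21 to ES24 and no higher than 6.86 elsewhere. Of 8 regulators and markers of primordial germ cells, 4 were lower and 0 higher (median -0.54), led by Tfap2c (-1.98), Dppa3 (-1.80) and the alkaline phosphatase gene Alpl (-1.57). Tfap2c was at 8.29, 8.24, 9.49 and 8.97 in ES21 to ES24, at 8.09 and 7.73 in ES13 and ES14, and between 4.92 and 5.40 in ES1 to ES12. In 4 of these 8 genes all of ES21 to ES24 lay above the other 8 arrays labelled C57BL/6, against 5.08% of all tested genes. Prdm14 belongs both to this list and to the naive pluripotency list below. The list mean overlapped between ES21 to ES24 (7.34 to 8.16) and ES15 to ES20 (7.47 to 7.64). Kit was lower in ES21 to ES24 (8.03 to 8.88) than in ES15 to ES20 (9.75 to 10.22). So was Itgb3, at 6.24 to 7.17 against 10.13 to 11.91.

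The list means of genes of later germ cells moved little, although single genes differed. Of 11 spermatid genes 0 were lower and 2 higher (median 0.04), Prm1 (0.33) and Odf2 (0.28), whose calls were lost in 17 and 14 of the 26 fits that left out 1 array. The list mean lay between 5.79 and 6.03 in ES21 to ES24 and between 5.62 and 5.99 in the other arrays. Of 10 oocyte genes 1 was lower and 2 higher (median -0.04), with Oosp1 at 0.92, Zp3 at -0.49 and Padi6 at 0.30, and their mean lay between 4.87 and 5.08 in ES21 to ES24 and between 4.77 and 5.19 elsewhere. Zp3, a zona pellucida glycoprotein gene, was at 6.09, 5.83, 6.49 and 6.21 in ES21 to ES24 and no higher than 5.38 elsewhere.

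**Figure D5:**
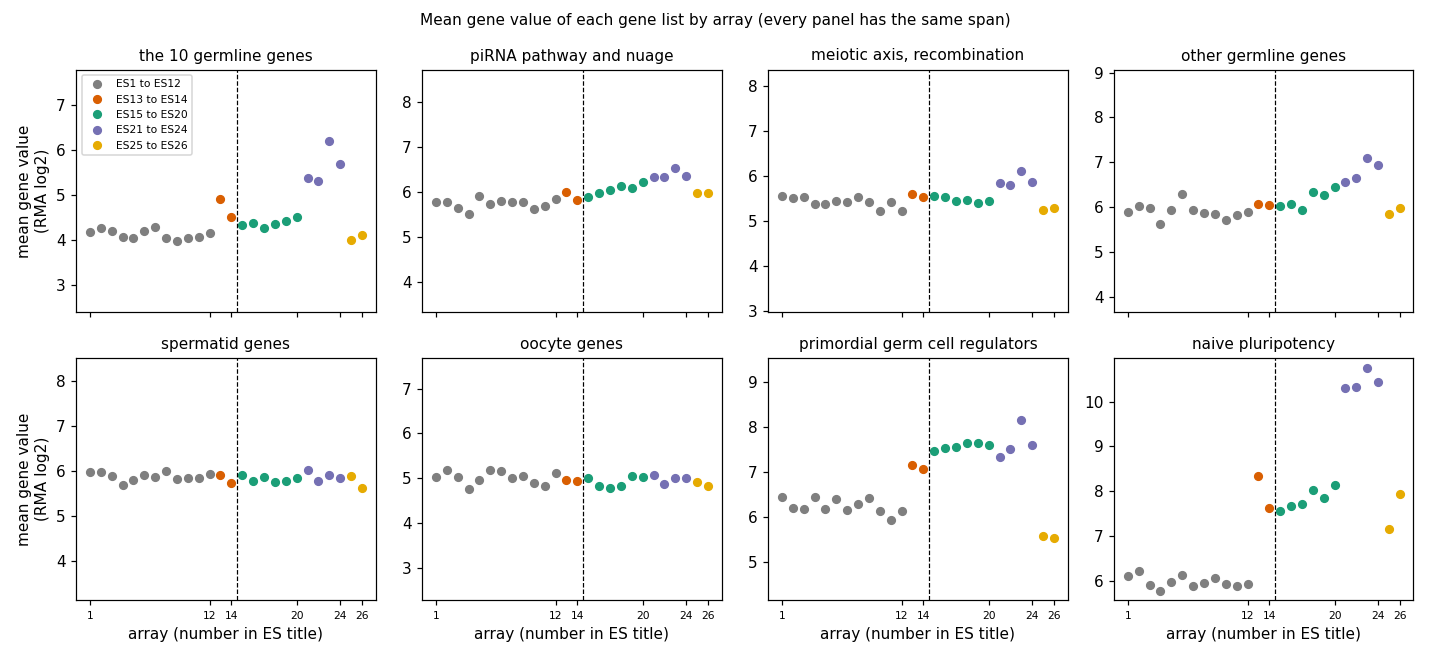
Mean gene value (RMA log2) of each list on the y axis against the array number on the x axis, 1 point per array, coloured by run of titles, with the arrays labelled 129S2/SvPas left of the dashed line and C57BL/6 right of it. The 10 germline genes and the naive pluripotency genes are both highest in ES23, and the means of the spermatid and oocyte genes stay within 5.62 to 6.03 and 4.77 to 5.19.

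The 10 germline genes and the naive pluripotency genes both had their highest means in ES21 to ES24. Set against ES1 to ES12, they differed in ES25 and ES26 and in ES15 to ES20. The mean of the 10 germline genes was 5.37, 5.32, 6.20 and 5.69 in ES21 to ES24, 4.90 and 4.50 in ES13 and ES14, between 4.27 and 4.51 in ES15 to ES20, 4.00 and 4.11 in ES25 and ES26, and between 3.98 and 4.29 in ES1 to ES12. The mean of 18 naive pluripotency genes was 10.30, 10.34, 10.76 and 10.45 in ES21 to ES24, 8.35 and 7.64 in ES13 and ES14, between 7.56 and 8.15 in ES15 to ES20, 7.17 and 7.95 in ES25 and ES26, and between 5.79 and 6.23 in ES1 to ES12. ES25 and ES26 thus lay above ES1 to ES12 in the pluripotency genes and inside their range in the germline genes. ES15 to ES20 also lay above ES1 to ES12 in the pluripotency genes, while in the germline genes these runs overlapped. Outside ES21 to ES24 none of the 10 germline genes exceeded the 95th percentile of the sensory receptor genes, so small differences there may not be seen. Of the 18, 15 were lower under 129S2/SvPas and 0 higher (median -2.47), with Dppa5a at -4.91, Tdgf1 at -4.11 and Zfp42 at -3.99. In 16 of the 18, all of ES21 to ES24 lay above the other 8 arrays labelled C57BL/6, against 5.08% of all tested genes. The part of pluripotent cells in the level of the germline genes was not tested.

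Among other cell types, 11 of 12 fibroblast genes were lower and 1 higher (median -2.81; Fn1 -4.69, Prrx1 -4.64, Col1a2 -4.03), and their mean lay between 7.13 and 8.19 in ES21 to ES24, between 8.42 and 10.46 in ES15 to ES20, and at 8.57 and 8.85 in ES25 and ES26. Of 7 embryonic erythroid genes, 6 were lower and 0 higher (median -2.41; Hbb-y -3.38, Hbb-bh1 -3.35, Hba-x -2.67), with a mean of 5.81 to 6.05 in ES21 to ES24 and 9.29 to 11.53 in ES15 to ES20. Of 11 visceral endoderm genes 5 were lower and 0 higher (median -0.82; Gata6 -1.46, Ttr -1.39, Gata4 -1.32). The neutrophil and myeloid genes had a median difference of 4.61, with Ms4a3 at 7.08, Ngp at 6.81 and Lcn2 at 6.05. The part of these cell types in the values of the germline genes was not tested.

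The genes that set and remove DNA methylation were called no more often than all tested genes, although single ones differed across the same arrays. Of 10 such genes 2 were lower under 129S2/SvPas, Tet1 (-2.66 ± 0.52, SE; limma adjusted p = 0.000169) and Dnmt3b (-1.32 ± 0.51, adjusted p = 0.0374), and Dnmt1, the maintenance methyltransferase, was higher (0.34 ± 0.09, adjusted p = 0.00214), with a list median of -0.20. Of all tested genes, 22.1% were called lower and 21.1% higher. The call of Dnmt3b was lost in 14 of the 26 fits that left out 1 array. Tet1, which oxidises methylcytosine, was at 10.07, 10.26, 11.21 and 11.23 in ES21 to ES24 and no higher than 9.14 elsewhere. Dnmt3l, the catalytically inactive partner of the de novo enzymes, was at 10.13, 9.98, 10.87 and 11.00 in ES21 to ES24 and no higher than 8.06 elsewhere, and its difference between the strain labels did not pass (-0.21 ± 0.54, limma adjusted p = 0.783). Dnmt3a was lower in ES21 to ES24 (9.02 to 9.56) than in ES15 to ES20 (9.64 to 10.48). So was Tet3, at 7.71 to 8.21 against 8.70 to 9.38. Dnmt3b was at 10.02, 10.27, 10.66 and 11.03 in ES21 to ES24, at 11.23 and 10.12 in ES13 and ES14, and at 6.52 and 7.35 in ES25 and ES26. It ran from 6.45 to 8.20 in ES1 to ES12 and from 8.14 to 9.77 in ES15 to ES20. ES13 thus had the highest Dnmt3b value of the 26 arrays. In ES13, Dazl, Hormad1, Slc25a31 and Tex101 lay within the range of ES1 to ES12. Ddx4, Sycp3, Mael, Stk31, Tdrd1 and Taf7l in ES13 lay above that range. The part of these enzymes in the level of the germline genes was not tested.

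Of 20 genes of the complexes that repress germline promoters, 8 were lower and 2 higher (median -0.20), led by the heterochromatin gene Cbx1 (-0.82), the Polycomb ubiquitin ligase gene Rnf2 (-0.77) and the corepressor gene Trim28 (-0.77). In 4 of the 20 all of ES21 to ES24 lay above the other 8 arrays labelled C57BL/6, against 5.08% of all tested genes. E2f6 lay between 8.03 and 8.56 in ES21 to ES24 and between 8.00 and 9.00 in the other arrays, and did not pass (-0.10 ± 0.12, SE; limma adjusted p = 0.555). Trim28 was at 12.64, 12.66, 12.97 and 12.82 in ES21 to ES24, above the 12.44 reached at most elsewhere.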

How the data were processed

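RNA from 26 samples was measured on Affymetrix Mouse Exon 1.0 ST arrays. The authors deposited RMA log2 values (background-corrected, normalized across arrays and summarised per probe set in Affymetrix Expression Console at the extended exon level, per the labels); the log base is taken from RMA convention and the range of 0.831 to 15.6, and the program's version and genome build are not given in the sources used here. Scanner files were not used here, so detection could not be called. Precision depends on how many arrays each label has and on how unlike those arrays are.

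Of 631748 probe sets, 306069 had 1 gene symbol, 6067 several and 319612 none. Of 21757 symbols, 3725 were updated to current RefSeq symbols and 285 had no current match and were kept. The fit took the 18341 genes with 4 or more probe sets. Strain labels were compared with limma 3.58.1 in R 4.3.3 (lmFit, then eBayes with an intensity trend), as 129S2/SvPas minus C57BL/6, two-sided, with Benjamini-Hochberg adjustment over all genes or all 631748 probe sets and a threshold of 0.05. On simulated data the gene comparison recovered 22 of 50 genes changed by 0.5 log2 units and 43 of 50 changed by 1. It recovered 48 of 50 changed by 2 and 50 of 50 changed by 4. There were 8 false calls among the unchanged genes, out of 18341 genes simulated in all. The simulated arrays were independent draws around 1 mean per gene, without runs of unlike samples. These figures therefore do not show how the test behaves on the real arrays.

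The 10 genes and all 13 lists were chosen with earlier results of these data known. Besides the 10 genes, the text names, from each list, at most 3 genes that passed, those with the widest difference, and the 2 genes nearest to each of the 10 whose range was at least 2 log2 units. Pou5f1, Dnmt3l, Dnmt3a, Tet3, Kit, Itgb3, E2f6, Tex11's test and the per-array values of list genes were added after their values were seen. Alternatives were other gene summaries, filters, normalizations and limma settings, and runs or single arrays left out.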

Additional observations from a re-analysis of the deposited data

How the results depend on the processing

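The count of the 10 genes lower under 129S2/SvPas, 6 with all arrays, was 2 with centred arrays, 1 at an adjusted p below 0.01, 0 without ES1 to ES12, 0 without ES21 to ES24, 1 without ES23 and ES24, and between 2 and 7 with 1 array left out; it was 5 or 6 under the remaining alternatives run. With the dimmer 50% of genes left out none of the 10 was tested, so that count was not run. All genes called numbered 7931, 4841 without the dimmer 50% (fewer genes tested) and 1 without ES1 to ES12, where 1814 had an unadjusted p below 0.05. Probe sets called numbered 181661, 120850 at an adjusted p below 0.01 and 55 without ES1 to ES12. Probe sets of the 10 genes called lower numbered 40, 4 without the dimmer 50%, 10 at an adjusted p below 0.01, 0 without ES1 to ES12, 73 without ES15 to ES20, 7 without ES21 to ES24 and 16 without ES23 and ES24. Differences that changed sign without ES1 to ES12 were Ddx4 0.51, Sycp3 0.44, Tdrd1 0.57, Taf7l 0.11, Mybl1 0.14, Tex15 0.19, Tfap2c 0.32, Alpl 0.76, Tet1 0.29, Dnmt3b 1.56, Cbx1 0.19, Rnf2 0.12, Trim28 0.07, Tdgf1 1.27, Hbb-bh1 1.29, Fn1 0.30, Gata6 0.24 and Gata4 0.86. Without ES15 to ES20 they were Hbb-y 0.02, Hbb-bh1 0.64, Gata6 0.06 and Ttr 0.35, and without ES21 to ES24 Tdrd1 0.07 and Taf7l 0.06. Tdrd1 was 0.01 with centred arrays and Prm1 -0.05 with the median over all probe sets. With the mean over all probe sets Sycp3 did not pass (-0.49, limma adjusted p = 0.065). The cause of these changes was not tested. No paired analysis was possible because the labels give the strains no shared replicate numbers.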
